A study of Mus musculus with 2 samples.

Results

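The Wnt genes described here are the secreted Wnt ligands, their receptors and their extracellular antagonists, together with the R-spondin branch that sets how much receptor stays on the cell surface and the Axin and TCF/LEF proteins that carry the signal inside the cell. They were chosen by name: every probe set whose array annotation names a single gene with a symbol of these families. That gave 107 probe sets for 56 genes, out of 18193 genes named singly on the array. The annotation table used here pairs no probe set with Tcf7 alone, and that gene was not analysed here.

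Total RNA came from ovaries of wild type mice of the CD-1 background, 24 to 28 days of age. Both groups had received PMSG (5 IU, a gonadotropin from pregnant mares), which grows preovulatory follicles, and after 48 h 5 IU of human chorionic gonadotropin (hCG), which starts ovulation. At 2 h after hCG, 1 group was given oil vehicle and the other ulipristal acetate, a progesterone receptor modulator that the labels also call CDB. Ovaries were collected at 11 h, without a statement of which injection this counts from, and the number of mice behind each sample is not stated. There was 1 array per treatment, so no spread between animals can be given, no test was possible, and every difference below is between these 2 samples.

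A Wnt ligand is carried to the cell surface with a lipid attached by the enzyme porcupine (Porcn) and binds a Frizzled receptor (Fzd) with a co-receptor, Lrp5 or Lrp6. The bound receptors draw Axin away from the complex that destroys beta-catenin, which then acts on target genes through TCF and LEF factors. Secreted Frizzled-related proteins (Sfrp, Frzb) and Wif1 can hold ligands away from their receptors, and Dickkopf proteins (Dkk) block the co-receptors. R-spondins (Rspo) bind Lgr4, Lgr5 or Lgr6 and restrain Znrf3 and Rnf43, the ligases that remove Frizzled from the membrane. In the ovary Wnt4 and Rspo1 are known for directing female gonad development, and Frizzled and Sfrp genes are expressed in follicles and corpora lutea.

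Most measured Wnt genes differed by less than 2-fold between the arrays, in both directions, and the largest differences were those of a receptor and an antagonist. Fzd1 was lower with ulipristal and Sfrp2 was higher. Signals are MAS5 values in arbitrary units, scaled to a trimmed mean of 150.001 on each array (2% of values left out at each end), and each gene is represented by whichever probe set was brightest on average over both arrays (mean log2 signal). A gene counted as measured where that mean reached a signal of 30.8, the median over the array. This held for 31 of the 56 genes, and 25 were dimmer. A difference of 2-fold or more was found for 2 of the 31, 1 higher and 1 lower with ulipristal, while 29 lay between. The background over all 11364 measured genes was 3.34% higher and 1.56% lower by that threshold, so the counts among the Wnt genes are near the background. The median log2 ratio, ulipristal over vehicle, was 0.04 for the 31 Wnt genes and 0.09 for all measured genes. Of all measured genes 60.0% had a ratio above 0, and of the Wnt genes 17 of 31 (54.8%). Regardless of direction, the median size of the log2 ratio was 0.40 for the Wnt genes and 0.26 for all measured genes, a difference that was not tested. The filter uses the mean of both arrays, so a gene high on only 1 of them could pass through that array.

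**Figure D1:**
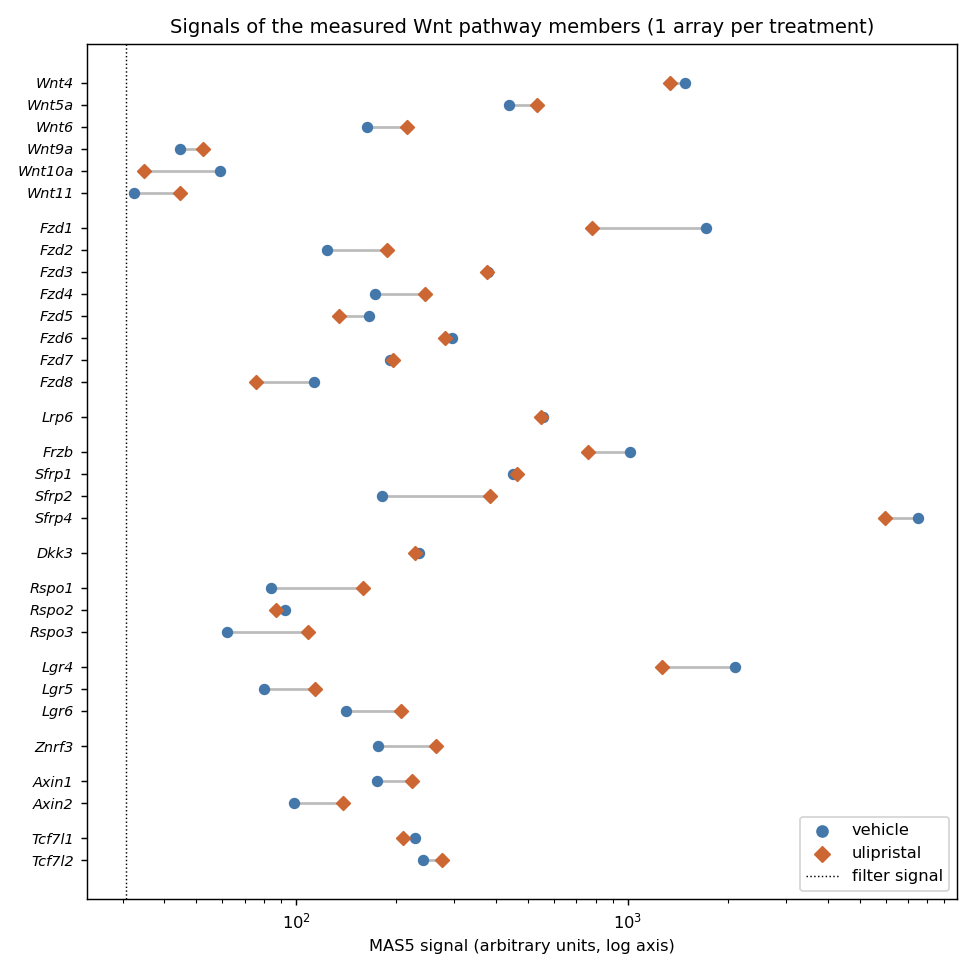
MAS5 signal (arbitrary units, log axis) of the 31 measured Wnt genes with vehicle (circles) and with ulipristal (diamonds), grouped by role from ligands at the top to TCF factors at the bottom, with 1 array per treatment. The widest gaps are those of Fzd1 (1721 against 780) and Sfrp2 (182 against 384), and the other 29 genes differ by less than 2-fold.

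Fzd1, a receptor of the Frizzled family, gave 1721 with vehicle and 780 with ulipristal, 2.21-fold lower. Its other probe set was below the filter and read 28.8 and 25.4, so a single bright probe set carries the difference. In its decile of mean signal, the brightest of 10, 1.58% of measured genes were lower by 2-fold or more. The log2 ratio was -1.14, and it was -1.20 after median centring and -1.07 after quantile normalization. It was -1.08 after lowess centring and -1.09 with a constant added to every signal. The remaining alternatives left the Fzd1 value unchanged, so they say nothing of its stability. Whole ovaries were used, so fewer cells of a type and less RNA per cell cannot be told apart. Genes listed for cumulus cells, which surround the oocyte, were lower on the same array. Of the 7 measured, 6 were at least 2-fold lower, beside 1.56% of all measured genes. The summed signal of the 7 was 11888 with vehicle and 2300 with ulipristal. Has2 (58.0 and 18.8) and Btc (78.7 and 22.9) were below the filter signal on the ulipristal array, so they counted as measured through the vehicle array. Whether the 7 genes are particular to cumulus cells in this tissue was not tested. As a list, markers of granulosa cells were not lower, with summed signals of 14600 and 19482. Of the 11, 5 were past 2-fold upward and 0 downward, beside 3.34% and 1.56% of all measured genes. The part of either cell type in the Fzd1 value was not tested.

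Sfrp2, a secreted antagonist with a Frizzled-like domain, gave 182 with vehicle and 384 with ulipristal, 2.11-fold higher, on its only probe set. In its signal decile 0.528% of measured genes were at least 2-fold higher. Its log2 ratio was 1.08, and it was 1.02 after median centring and 1.01 after quantile normalization. It was under 2-fold after lowess centring (0.999) and with 50 added to every signal (0.902). The other alternative settings left this value unchanged, so they say nothing of its stability. Rspo1, at 1.90-fold, was the measured gene nearest below the threshold.

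The bases before the start sites of both genes are shown with those of Axin2, a negative regulator of the pathway that is itself a well-known beta-catenin target. They are the 250 bases upstream of the RefSeq start (build GRCm38.p6), 5′ to 3′ on the strand of the gene. Capitals mark matches on either strand to CTTTGA or CTTTGT, cores of TCF/LEF motifs, or to TGTTCT, a hexamer bound by the progesterone and glucocorticoid receptors. The Fzd1 window is chr5:4758217-4758466 on the minus strand, that of Sfrp2 is chr3:83766071-83766320 on the plus strand, and that of Axin2 is chr11:108920099-108920348 on the plus strand.
Fzd1: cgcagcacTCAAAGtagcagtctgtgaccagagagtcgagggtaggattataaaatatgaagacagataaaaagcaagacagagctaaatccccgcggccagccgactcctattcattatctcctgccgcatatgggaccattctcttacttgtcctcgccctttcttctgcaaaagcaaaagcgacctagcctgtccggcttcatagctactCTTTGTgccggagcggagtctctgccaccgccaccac
Sfrp2: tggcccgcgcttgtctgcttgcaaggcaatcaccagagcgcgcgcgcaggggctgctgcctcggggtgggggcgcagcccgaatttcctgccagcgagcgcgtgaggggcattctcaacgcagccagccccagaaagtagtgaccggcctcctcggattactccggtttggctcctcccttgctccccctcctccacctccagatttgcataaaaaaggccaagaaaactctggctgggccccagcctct
Axin2: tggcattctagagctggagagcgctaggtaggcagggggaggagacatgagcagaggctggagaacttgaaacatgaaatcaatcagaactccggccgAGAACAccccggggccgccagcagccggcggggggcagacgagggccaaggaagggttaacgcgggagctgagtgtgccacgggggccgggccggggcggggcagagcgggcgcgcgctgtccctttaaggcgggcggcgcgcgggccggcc

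The Fzd1 window held CTTTGA on the opposite strand, with its first base 242 bases before the start, and CTTTGT on the gene's strand at 37 bases before it. Sfrp2 had no match to these 3 hexamers in its window, and Axin2 had 1, to TGTTCT on the opposite strand, 152 bases before the start. None of the matches overlapped. The table of start sites held 37 of the 56 genes, with 45 windows in all. CTTTGA or CTTTGT stood in 11 of these 45 windows (24.4%) and in 27.6% of all 32851 windows of the same length, and TGTTCT in 8 (17.8%) against 16.1%. Both shares are close to those of all windows. A match describes letters only and is not a measured binding site.

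Among the 19 ligand genes, 6 were measured and 0 reached 2-fold in either direction. Wnt4, the ligand of female gonad development, had signals of 1485 with vehicle and 1341 with ulipristal, and its other probe set read 647 and 564, so both were slightly lower (log2 ratios of -0.15 and -0.20). Wnt5a, which mostly signals without beta-catenin, read 439 and 534 on its brightest probe set. Directions varied within the gene: the other measured probe sets read 196 and 150 in one case and 105 and 176 in the other, so no direction can be given for the gene. Wnt6 was 1.32-fold higher (164 against 215) on its brightest probe set and 1.12-fold lower on the other (60.7 against 54.2). Wnt11 (32.4 and 44.7) and Wnt9a (44.7 and 52.5), each on a single measured probe set, were 1.38-fold and 1.18-fold higher at signals not far above the filter. Wnt10a had the largest ratio of the measured ligands and was 1.70-fold lower, from 59.2 to 34.9. With 50 added to every signal its log2 ratio moved from -0.76 to -0.36.

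Several Wnt genes lie beside each other in the genome, and 1 pair of neighbours could be compared. The RefSeq gene order held 4 pairs of neighbouring ligands: Wnt6 with Wnt10a, Wnt3a with Wnt9a, Wnt9b with Wnt3, and Wnt10b with Wnt1. Only in the first were both genes measured, and there the log2 ratios of the brightest probe sets were 0.40 for Wnt6 and -0.76 for Wnt10a.

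The other 13 ligands were too dim to be measured. Wnt1 (5.602 with vehicle and 2.73 with ulipristal), Wnt2 (0.71 and 2.98), Wnt2b (1.41 and 5.78) and Wnt3 (4.54 and 1.21) were below the floor of 7.17 on both arrays, where signals have no order. Wnt8a (1.95 and 10.3), Wnt8b (9.03 and 3.23) and Wnt9b (0.77 and 9.74) were above it on 1 array only, by less than 2-fold. Wnt7a (15.8 and 9.14), Wnt7b (29.4 and 30.6) and Wnt5b (27.1 and 27.2) were above the floor on both. The remaining dim ligands passed 2-fold at low signals. Wnt10b read 12.6 with vehicle and 33.4 with ulipristal, Wnt16 read 4.39 and 20.4 (at least 2.84-fold higher against the floor), and Wnt3a read 22.2 and 2.67 (at least 3.10-fold lower). Of all 6829 genes below the filter 9.45% passed 2-fold upward and 4.14% downward, so such ratios are common at these signals.

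Of the 10 Frizzled receptors 8 were measured, and apart from Fzd1 none of their brightest probe sets reached 2-fold. Fzd2 was higher on all 3 of its probe sets, which read 124 and 188, 77.8 and 195, and 97.0 and 123, or 1.51-fold, 2.50-fold and 1.27-fold. The middle probe set was past 2-fold, and the brightest was not. Fzd4, a receptor whose loss in mice is known to impair the corpus luteum, read 173 with vehicle and 244 with ulipristal, whereas its second measured probe set read 69.0 and 69.5. Fzd8 was lower on both probe sets, at 114 against 75.5 and 45.9 against 29.2 (1.504-fold and 1.57-fold). Fzd5 read 166 and 135, 1.23-fold lower.

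Fzd3, Fzd6 and Fzd7 were nearly level between the arrays. Fzd3 read 379 and 377 on its brightest probe set, Fzd6 read 296 and 282, and Fzd7 read 192 and 196. The log2 ratio of Fzd7 was 0.03 and turned below 0 under all 3 scaling alternatives. Fzd9 (14.4 with vehicle, 2.82 with ulipristal, at least 2.01-fold lower) and Fzd10 (3.10 and 8.57) were below the filter. The co-receptor Lrp6 read 556 and 547 on its brightest probe set, and 140 and 91.0 on the other. Lrp5, its paralogue, was just below the filter on average (25.2 and 34.7).

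The secreted antagonists other than Sfrp2 stayed within 2-fold on their brightest probe sets. Sfrp4, an antagonist known from luteinizing granulosa cells, read 7483 with vehicle and 5964 with ulipristal, 1.25-fold lower on its single probe set. Frzb, on its brightest probe set, was 1.33-fold lower (1012 against 759), and it was 1.17-fold higher on the other (128 against 149), so the direction of the gene is unsettled. Sfrp1 had 5 measured probe sets and all were above 0, but they disagreed in size. The brightest read 450 and 462 and the next 316 and 462, and the largest ratio came from one that read 71.4 and 173, 2.43-fold higher. The remaining pair had log2 ratios of 0.15 and 0.25. The brightest probe set of Sfrp1, with a log2 ratio of 0.04, turned to -0.02 after median centring. Sfrp5 (13.3 and 12.4) was below the filter, and Wif1 (4.22 and 5.56) below the floor on both arrays.

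Of the 5 Dickkopf genes only Dkk3, a divergent member of the family, was measured, and its probe sets were level: 235 and 228, and 169 and 175. Dkk2 read 20.4 with vehicle and 39.2 with ulipristal, which is 1.93-fold higher at a mean below the filter. Dkk1, the best known inhibitor of the co-receptors, read 14.98 and 12.98. Dkk4 (6.23 and 1.63) and Dkkl1 (2.20 and 1.70) were below the floor on both arrays.

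In the R-spondin branch 2 of 3 measured ligands and 2 of 3 receptors were higher with ulipristal, all by less than 2-fold, beside 60.0% of all measured genes above 0. Rspo1 read 84.0 with vehicle and 159 with ulipristal, 1.90-fold higher on its single probe set. Rspo3 read 61.9 and 109, 1.76-fold higher. Rspo2 read 92.3 and 87.0, and a dim second probe set read 23.8 and 6.44. Rspo4 (1.38 and 1.31) was below the floor on both arrays. The log2 ratios of Rspo1 and Rspo3 were 0.92 and 0.81, and with 50 added to every signal 0.64 and 0.51.

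Lgr4, an R-spondin receptor, was lower: its measured probe set read 2107 with vehicle and 1270 with ulipristal, 1.66-fold. The log2 ratio of Lgr4 lay between -0.79 and -0.63 under the alternatives that changed it. Its relatives were higher. Lgr5 read 79.9 and 114 (1.43-fold), and the probe sets of Lgr6 read 141 and 208, and 36.5 and 55.7 (1.47-fold and 1.53-fold). The ligase Znrf3, which removes Frizzled receptors, read 177 and 265, 1.497-fold higher, while a dim probe set read 22.01 and 2.77, the opposite direction. Its partner Rnf43 was below the filter at 18.7 and 13.3.

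Inside the cell both Axin genes were higher, by less than 1.5-fold on their brightest probe sets. Axin1, the scaffold of the destruction complex, read 175 with vehicle and 224 with ulipristal, and 25.7 and 41.6 on its other probe set (1.62-fold). Axin2, its feedback-induced relative, read 98.4 and 139, 1.41-fold higher. Tcf7l1, mostly a repressor, read 228 and 210, and 167 and 169. Tcf7l2, the factor best known from intestinal Wnt signalling, read 241 and 275 on its brightest probe set and 84.7 and 136 on the other measured one. Lef1 was just below the filter, at 29.5 and 28.2.

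**Figure D2:**
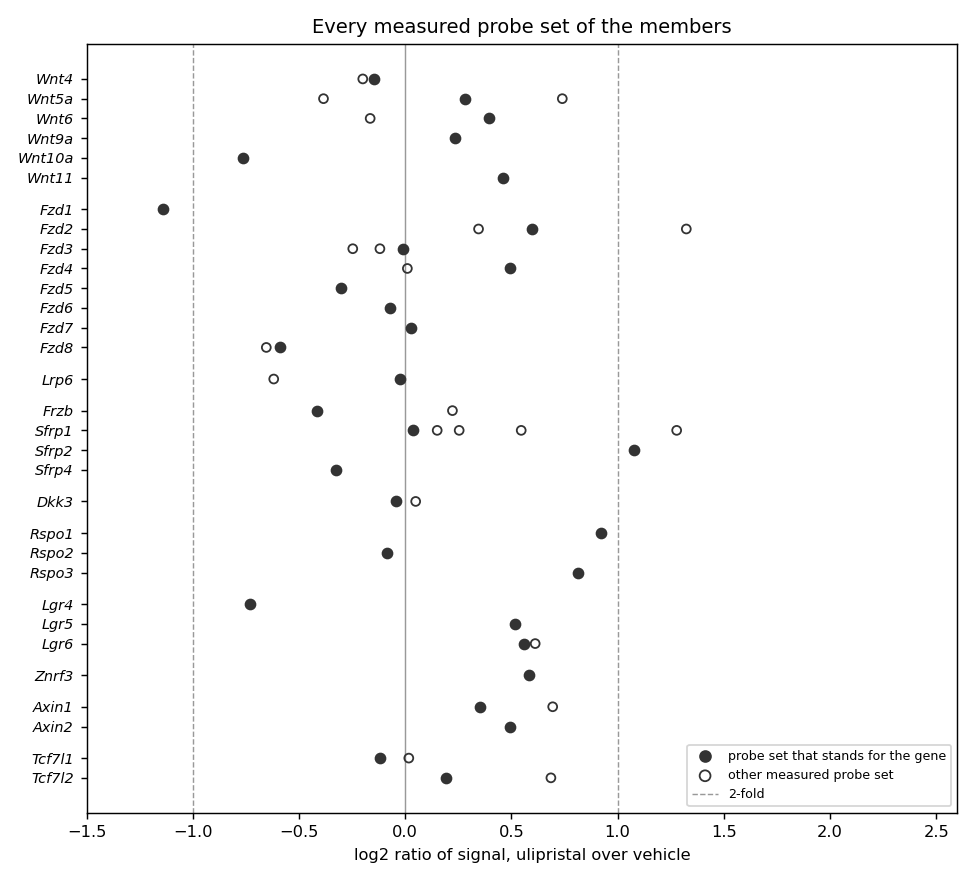
Log2 ratio of signal, ulipristal over vehicle, for each of the 52 measured probe sets of the Wnt genes, with filled circles for the probe set that stands for the gene, open circles for others and dashed lines at 2-fold. Fzd1 lies beyond the left line, Sfrp2 and 1 probe set each of Fzd2 and Sfrp1 beyond the right one, and Wnt5a and Frzb have probe sets on both sides of 0.

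Over probe sets rather than genes, 3 of 52 passed 2-fold upward and 1 downward, with a background of 3.2% and 2.02% over all 19467 measured probe sets that name 1 gene. Of the Wnt genes 15 had 2 or more measured probe sets, and in 5 of them (33.3%) the probe sets went in both directions, against 48.5% of all 4955 such genes. These 5 were Dkk3, Frzb, Tcf7l1, Wnt5a and Wnt6. The arrays also differed along transcripts: the control probe sets at the 5′ end gave 0.417 of the 3′ signal for Actb with vehicle and 0.535 with ulipristal, and 0.830 and 1.15 for Gapdh. Poly-A spike controls were 1.49-fold and 18S ribosomal RNA 2.41-fold brighter on the vehicle array. The positions of the probe sets along their transcripts were not used here, and the part of these differences in the ratios was not tested.

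At a lower threshold of 1.5-fold, 4 of the 31 measured genes were higher (Sfrp2, Rspo1, Rspo3 and Fzd2) and 4 were lower (Fzd1, Wnt10a, Lgr4 and Fzd8). Each count is 12.9% of the Wnt genes. The background over all measured genes was 12.3% higher and 4.58% lower by that threshold. The share of higher genes was therefore near the background and that of lower genes above it, a difference that was not tested. It rests on few genes. With 50 added to every signal, Fzd8 (log2 ratio -0.38) and Wnt10a (-0.36) came within 1.5-fold. So did Fzd2 (0.45) and Rspo3 (0.51) among the higher genes. The background by 1.5-fold was not counted under that setting. Ratios also varied with signal. The median log2 ratio of all measured genes was 0.28 in the dimmest decile and -0.12 in the brightest, which holds Fzd1, Lgr4, Sfrp4 and Wnt4. After lowess centring, which removes this trend, the log2 ratios were -1.08 for Fzd1, -0.65 for Lgr4, 0.80 for Rspo1 and 0.69 for Rspo3.

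**Figure D3:**
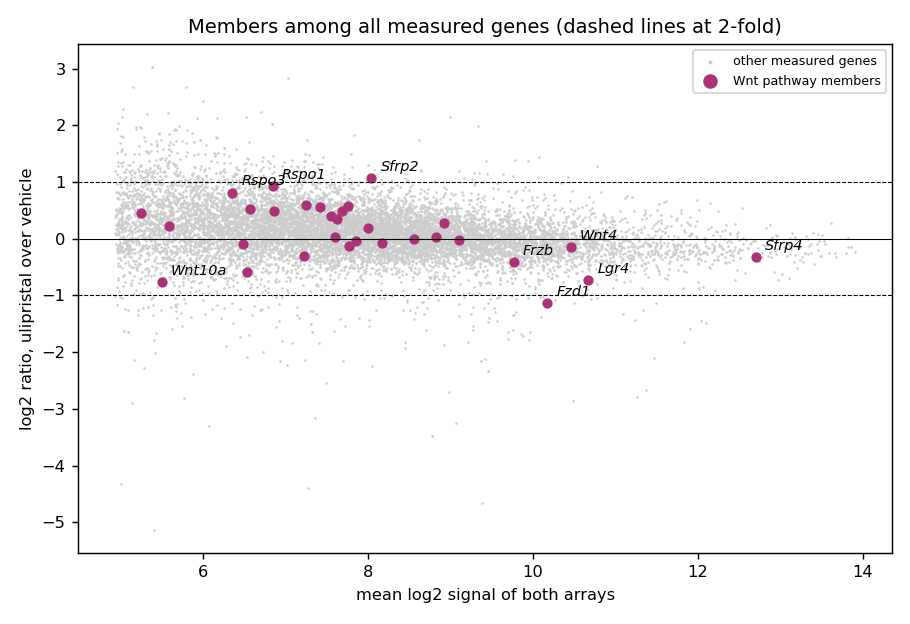
Log2 ratio, ulipristal over vehicle, against the mean log2 signal of both arrays for 11364 measured genes (grey points), with the 31 Wnt genes in purple and dashed lines at 2-fold. Fzd1 lies below the lower line and Sfrp2 above the upper one, and the grey points drift downward from dim to bright genes.

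The rest of the pathway was read from further lists, a pair of which also hold genes of the families above. Of 81 measured genes in these lists that are outside those families, 4 passed 2-fold upward, 4 downward and 73 neither, with a median log2 ratio of 0.08. The background by this threshold was 3.34% upward and 1.56% downward. Neither these counts nor those of the single lists below were tested against it. In the list for secretion and cofactors 1 of 10 measured genes was lower and 0 higher by 2-fold. That gene was Porcn, the acyltransferase that every Wnt ligand is thought to need for release, at 169 with vehicle and 72.9 with ulipristal, 2.32-fold lower on a single probe set. Wls, the carrier that brings ligands to the surface, read 628 and 577, and its 3 measured probe sets went both ways. Tpbg (175 and 240) and Gpc4 (2590 and 2059), membrane proteins that modulate Wnt signals, were within 2-fold.

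Among the receptors outside the Frizzled family 1 of 6 measured genes was lower and 0 higher by 2-fold. Ror2, a receptor tyrosine kinase for Wnt5a, read 67.5 with vehicle and 26.5 with ulipristal, 2.55-fold lower. The ulipristal value was below the filter signal of 30.8, so this probe set counted as measured through the vehicle array. The other probe set of Ror2 agreed in direction (log2 ratio -0.58). Ryk read 479 and 380, and Ptk7 read 69.7 and 108. Of other antagonists 4 were measured and 0 reached 2-fold. They included Igfbp4 (2847 and 3766), whose 6 probe sets were all above 0 with log2 ratios up to 1.76, Apcdd1 (311 and 443) and Bambi (162 and 198).

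In the beta-catenin cascade 2 of 31 measured genes were higher and 0 lower by 2-fold. Cxxc4, an inhibitor that binds Dishevelled, read 25.9 and 97.8, 3.77-fold higher, on the 1 measured of its 3 probe sets. It was below the filter signal of 30.8 on the vehicle array, so it counted as measured through the ulipristal array. Tle5, a short relative of the Groucho corepressors, read 419 and 937, 2.24-fold higher. Btrc, part of the ligase that marks beta-catenin for breakdown, read 72.7 and 127. Ctnnb1, the beta-catenin gene, read 6640 and 6449 on its brightest probe set, but its 3 probe sets gave log2 ratios from -0.04 to 1.16. In the planar cell polarity list, the branch that orients cells without beta-catenin, 1 of 15 was higher and 0 lower by 2-fold. Celsr1, an adhesion receptor of that branch, read 72.1 and 157 (2.18-fold), Scrib read 101 and 195, and Vangl2 read 132 and 94.9 with probe sets in both directions.

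Known beta-catenin targets went both ways, with 8 measured genes above 0 and 7 below, where 60.0% of all measured genes were above 0. By 2-fold or more, 2 of these 15 were lower and 0 higher, and their median log2 ratio was 0.09. Nrcam, a neuronal adhesion molecule, read 969 with vehicle and 384 with ulipristal, 2.52-fold lower, with both measured probe sets past 2-fold. Fosl1, an AP-1 factor that also responds to growth factors, was 4.87-fold lower at 86.4 and 17.7, on the 1 measured of its 2 probe sets. It was below the filter signal of 30.8 on the ulipristal array, so it counted as measured through the vehicle array. Tnfrsf19, a receptor of the tumour necrosis factor family, was 1.84-fold higher at 93.5 and 172. The list shares 6 genes with the families above, of which Axin2, Lgr5 and Znrf3 were measured and were between 1.41-fold and 1.497-fold higher. In a list around female gonad development, which includes Wnt4 and Rspo1, 1 of 9 measured genes was higher and 0 lower by 2-fold. Gata4, a zinc finger regulator of the somatic gonad that is also in the granulosa marker list, read 101 and 259 (2.55-fold), and Foxl2, the granulosa identity factor, read 940 and 1597. Fst, follistatin, which Wnt4 is known to induce in the fetal ovary, read 1498 and 1305 with both probe sets slightly lower.

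Every marker list except that of cumulus cells had a median log2 ratio above 0 and a higher summed signal with ulipristal. The rise was therefore not particular to the 4 lists given next. Of the 31 measured Wnt genes 17 (54.8%) were above 0, with the largest ratios for Sfrp2, Rspo1 and Rspo3. Oviduct markers had 7 of 8 measured genes at least 2-fold higher and 0 lower. Their summed signals were 3898 with vehicle and 6319 with ulipristal, mostly from Ovgp1 (3641 and 5642), which was 1.55-fold higher. The largest ratios among the measured were those of Foxj1 (19.1 and 75.1), Cdhr4 (30.7 and 111) and Ccdc39 (27.4 and 72.9). Each of these was below the filter signal of 30.8 on the vehicle array, so it counted as measured through the ulipristal array. Markers of the ovarian surface epithelium, a layer known for Lgr5, had 1 of 10 at least 2-fold higher, 9 above 0 (60.0% over all measured genes) and summed signals of 1480 and 2260, led by Epcam (107 and 268), Krt18 (200 and 381) and Cdh1 (72.2 and 134). Theca and interstitial markers had 2 of 6 at least 2-fold higher, Fabp3 (110 and 274) and Tcf21 (538 and 1193), and 1 lower, Hhip (280 and 60.0), with sums of 3341 and 4952. Stroma markers had 1 of 8 at least 2-fold higher, Tcf21, which both lists hold, and sums of 31076 and 35718, with Lum at 1742 and 2924 and Dcn at 3461 and 4942. No marker of these 4 lists was below the floor on both arrays. The part of these cell types in the Wnt gene values was not tested.

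The ovary label was checked against further markers, with the same shares of all measured genes beside them (3.34% at least 2-fold higher, and 14.2% in the dimmest decile). Oocyte markers had 10 of 11 genes measured, 0 past 2-fold and sums of 2284 and 2561, with Mos (40.4 and 65.5), Zp3 (211 and 301) and Zp1 (91.0 and 124) the most different. The granulosa list was led by Inhbb (656 and 1781) and Inhba (544 and 1426), and the cumulus list by Ptgs2 (1467 and 132), Ereg (3881 and 534) and Vcan (5886 and 1376). Endothelial markers had 2 of 10 at least 2-fold higher, Tie1 (24.8 and 76.8) and Pecam1 (85.2 and 171), ahead of Vwf (31.5 and 52.6), with sums of 2064 and 2642. Smooth muscle and pericyte markers had 0 of 8 past 2-fold and sums of 17023 and 18858, with Cnn1 (371 and 635), Cspg4 (67.9 and 108) and Myh11 (1469 and 2014) leading. Macrophage markers had 1 of 8 at least 2-fold higher, C1qc (97.7 and 198), then Cd68 (59.3 and 70.0) and Csf1r (404 and 463), with sums of 1563 and 1747. Adipose markers had 1 of 3, Cidec (28.7 and 67.9), ahead of Adipoq (195 and 370) and Fabp4 (1602 and 2148), with sums of 1827 and 2586. Tie1 and Cidec were below the filter signal of 30.8 on the vehicle array, so they counted as measured through the ulipristal array.

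**Figure D4:**
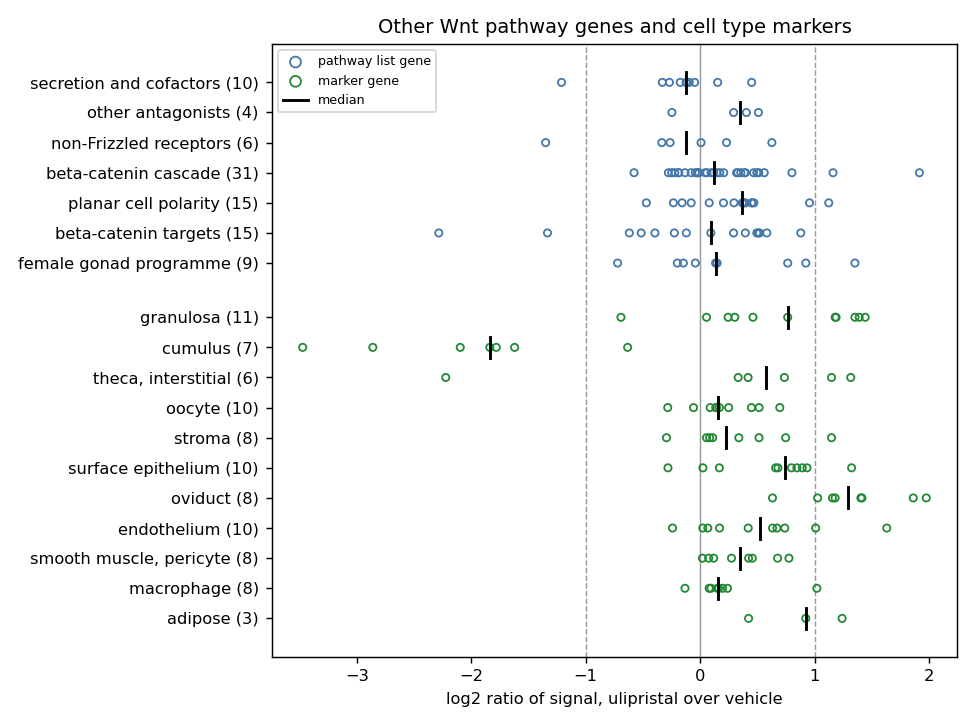
Log2 ratio, ulipristal over vehicle, of each measured gene in the lists of other Wnt pathway genes (blue) and of cell type markers (green), with the number measured in brackets, black bars for medians and dashed lines at 2-fold. The medians of the pathway lists lie between -0.13 and 0.37, that of cumulus markers is -1.84 and that of oviduct markers 1.29.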

How the data were processed

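The authors deposited probe set intensities on a linear scale from Affymetrix mouse expression arrays. Per the submitters' processing notes the tools were MAS5 and Affymetrix Expression Console (version 1), with no role stated for either. A genome build was not given in the sources used here. MAS5 gives 1 signal per probe set, and the scaling to equal trimmed means hides a shift shared by most genes.

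Of 45101 probe sets 34945 name 1 gene in the platform annotation, and all 56 Wnt genes were found in the RefSeq gene table. A floor of 7.17, the 25th percentile over both arrays without control probe sets, replaced lower signals before log2 was taken. The named genes are every member with its signals, and up to 3 measured genes of each other list with the largest ratios. Ctnnb1, Porcn, Wls, Fst, Ovgp1, Has2 and Btc are named in addition. The members and lists were chosen with earlier results of these data known. The steps were tested on simulated data with noise of an assumed size. The simulated differences were larger than those of Fzd1 and Sfrp2 and were set in brighter measured genes. Smaller differences and dim genes were therefore not covered. Alternatives were 3 scalings (median, quantile, lowess with fraction 0.3), no floor or one at the 50th percentile, no filter or one at the 75th percentile, 50 added to every signal in place of the floor, the median of the measured probe sets of a gene, omission of s and x probe sets, and 1.5-fold and 3-fold thresholds. With 1 array per treatment the number of arrays limits the precision. The software was Python 3.11.15 with statsmodels 0.14.6, pandas 2.3.3, numpy 2.4.6 and, for plots, matplotlib 3.10.9.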

Additional observations from a re-analysis of the deposited data

How the results depend on the processing

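Of the 31 measured Wnt genes, 28 kept the sign of their log2 ratio under each alternative that left them measured, and Dkk3, Fzd7 and Sfrp1, all near 0, did not. The count of genes at least 2-fold higher, 1 in the report, was 0 after lowess centring and with 50 added to every signal, 3 with no filter (Sfrp2, Wnt10b and Wnt16), 4 at 1.5-fold and 0 at 3-fold. The count at least 2-fold lower, also 1, was 3 with no filter (Fzd1, Fzd9 and Wnt3a), 4 at 1.5-fold and 0 at 3-fold. The median log2 ratio of the Wnt genes lay between -0.02 and 0.12. Of the other pathway genes 8 were past 2-fold, and this became 3 with the filter at the 75th percentile, 4 with 50 added to every signal, 15 at 1.5-fold and 2 at 3-fold. Thresholds of 1.5-fold and 3-fold change the counts by construction, and the genes added with no filter are those below it. Fewer genes are tested under the stricter filter, and adding 50 shrinks the ratios of dim genes by construction. Lowess centring subtracts the trend of ratio with signal. The cause of the other changes was not tested. No setting could be run without a replicate, since each treatment has 1 array.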
